A study of Homo sapiens with 12 samples.

Results

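The myocardin-related transcription factors MRTFA and MRTFB, their DNA-binding partner SRF and 7 contractile or cytoskeletal genes (ACTA2, TAGLN, CNN1, VCL, MYL9, TPM1 and MYO10) were followed in 12 bulk RNA libraries from RPMI2650, an epithelial cell line of human nasal tumour origin. These 10 genes were picked by symbol from the 50868 genes of the deposited table, with no threshold on any value. The list was drawn up with results of all 3 comparisons known, so the folds and adjusted p-values of the 10 genes are given as descriptions of an all-gene fit and carry no independent support.

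All cells had the genotype Wild Type and were cultured at the air-liquid interface, with their upper surface exposed to air. There were 4 libraries after 7 days with 1 µM PFHxA (perfluorohexanoic acid), 4 libraries after 7 days with 1 µM PFBA (perfluorobutanoic acid, the shorter chain) and 4 control libraries, for which no vehicle or day is recorded. No label ties the 4 replicates of a condition to separate cultures, so p-values measure the spread between these libraries, which may be technical. Library totals ran from 16941599 to 21879105 reads.

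As background, MRTFs bind monomeric actin and are held out of action by it. When actin is driven into filaments, the freed MRTFs enter the nucleus and work with SRF, which binds a sequence called the CArG box. Their targets are the genes that build and anchor actin filaments, and ternary complex factors such as ELK1 compete with MRTFs for SRF and direct it to immediate early genes. In smooth muscle and myofibroblasts the program makes contractile proteins; in epithelial cells it serves adhesion, migration and shape.

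The labelled cell type was checked against its markers. All 6 epithelial markers were above 1 CPM (counts per 1e6 reads, scaled by TMM factors), with KRT5 at a mean of 1926 CPM and EPCAM at 41.3 CPM. CDH1 was the lowest of them, at 9.59 CPM. Of 6 smooth muscle markers only LMOD1 was above 1 CPM, at 5.71 CPM, while MYH11, DES and ACTG2 averaged 0.196, 0.0381 and 0.0293 CPM. The summed smooth muscle markers lay between 5.55 and 8.06 CPM in PFHxA, 6.85 and 7.72 CPM in PFBA and 6.39 and 7.18 CPM in control libraries. Of the fibroblast markers 3 of 6 were above 1 CPM, led by PDGFRB at 26.1 CPM. The list passed 1 of 4 endothelial genes (CDH5, 8.65 CPM) and 1 of 4 leukocyte genes (CD68, 1.70 CPM). Summed epithelial markers differed by group, at 2790 to 2998 CPM in PFHxA, 2543 to 2662 CPM in PFBA and 2747 to 2787 CPM in control libraries. KRT5 made up most of this sum, and the single markers were not compared by group. The part of these markers in the results below was not tested. In these bulk libraries, a change in the share of cells of a type and a change in RNA per cell cannot be told apart.

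The CArG box was searched because it is the sequence by which SRF reaches its targets. In promoter windows of RefSeq (GRCh38.p14, 250 bases before to 50 after a start site), 8 of the 10 genes had at least 1 window, and SRF was the gene with a full CArG box, of which it had 2. A full box has only A or T in its 6 central bases and reads the same way on both strands as a pattern; it occurred in 1.29% of 35116 promoter windows. The windows of ACTA2, which encodes smooth muscle actin, held 2 boxes that depart from the full pattern by 1 G or C in the centre. Such a box or a full one occurred in 8.13% of all windows. The stretches are shown 5′ to 3′ on the gene's strand, with the boxes in capitals; SRF is at chr6:43171214-43171268 (plus strand) and ACTA2 at chr10:88952810-88952919 (minus strand).
SRF: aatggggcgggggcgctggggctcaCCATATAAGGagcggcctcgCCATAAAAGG
ACTA2: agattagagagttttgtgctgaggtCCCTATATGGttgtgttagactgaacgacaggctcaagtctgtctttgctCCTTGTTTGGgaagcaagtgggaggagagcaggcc
The SRF boxes start 30 and 10 bases before the start site, and those of ACTA2 start 121 and 71 bases before it. Letters missing from a window of this size say nothing about SRF at other positions of the same gene.

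Among the 10 genes, levels per length spanned a wide range. By CPM per kilobase of the longest GENCODE 29 transcript, the mean over the 12 libraries was 56.6 for ACTA2, 21.3 for SRF, 20.9 for VCL, 16.3 for TPM1, 8.93 for MRTFB, 6.61 for MRTFA, 1.42 for TAGLN, 0.288 for MYL9, 0.235 for MYO10 and 0.0889 for CNN1. The libraries of ACTA2 (52.0 to 60.6 CPM per kb) lay above those of every other gene of the set. SRF (19.4 to 24.7), VCL (18.5 to 22.8) and TPM1 (13.0 to 21.4 CPM per kb) overlapped one another, as did MRTFB (4.80 to 12.1) with MRTFA (5.32 to 8.02 CPM per kb). TAGLN stood alone between these and the lowest genes, at 1.05 to 1.94 CPM per kb, and MYL9, MYO10 and CNN1 overlapped below it. A gene whose main transcript is shorter than its longest one is understated on this scale.

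**Figure D1:**
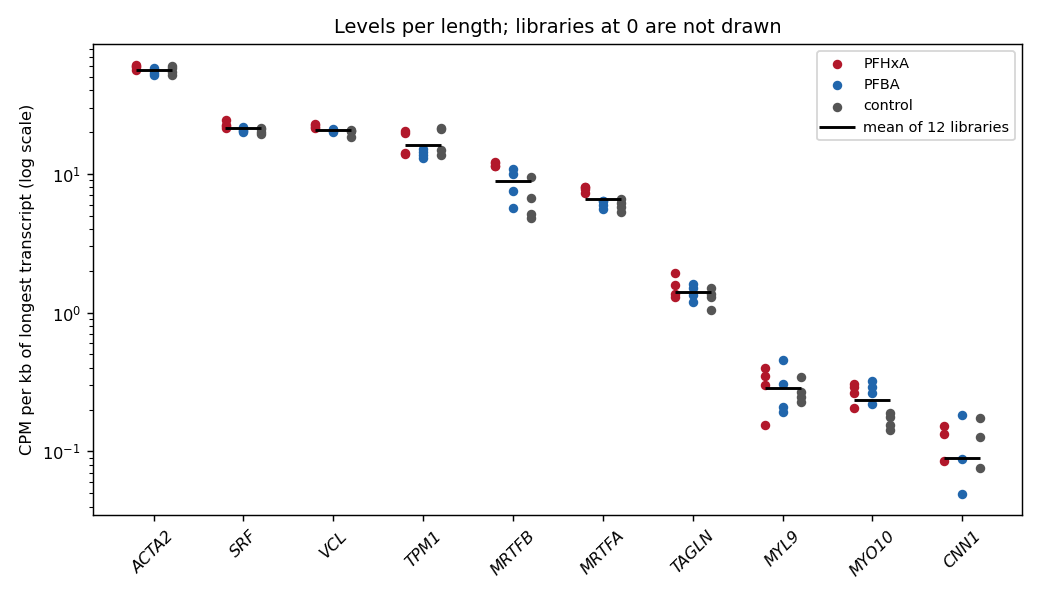
Level per length of each of the 10 genes on a log axis, as CPM per kilobase of the longest transcript. Points are single libraries with PFHxA left, PFBA in the middle and control right, and the dash is the mean of the 12. ACTA2 lies highest at 52.0 to 60.6 CPM per kb and CNN1 lowest, with libraries at 0 not drawn.

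Some of these genes share sequence with a neighbour on the other strand, and whether reads were counted by strand is not given in the sources used here. Exons of ACTA2 overlap those of FAS over 380 bases, those of VCL overlap AP3M1 over 1109 bases and those of TAGLN overlap PCSK7 over 446 bases. Reads of such pairs may be split or misassigned. ACTA2 is also a close relative of other actin genes, so that its count is uncertain where reads match several of them.

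With PFHxA, MRTFA, MRTFB, VCL and MYO10 rose against control, and no gene of the 10 fell. CNN1 had too few reads to be tested. Of the 9 tested genes 4 were called, where 14.9% of all 16554 tested genes were called in either direction and 6.08% were called higher; since the list was chosen with this comparison known, nothing is read from the count. Fitted folds were above 1 for 8 of the 9, with a median log2 fold of 0.16 against -0.00385 over all tested genes. The 4 PFHxA libraries lay above all 4 control libraries for 5 genes, where 9.49% of all tested genes did so. The PFHxA libraries also differed from the others in how gene levels followed GC content: the slope per 10 points of GC was 0.0674 to 0.0984 (log2 scale) in PFHxA, -0.0683 to -0.00362 in PFBA and -0.0621 to -0.00849 in control libraries. With each library's trend over transcript GC content and length removed, 0 of the 9 were called by edgeR. Of the 16452 genes in that fit, 457 were then called (176 higher), so nothing is read from this 0. Between the acids 144 were called with the trend removed (38 higher). Counts of the lists below with the trend removed are to be read beside these all-gene counts. Both values are therefore given for the 9 tested genes of the set where PFHxA is set against control. For the lists further below, the genes called with the trend removed are named. For most other list genes only the value as counted is given, which does not mean that the trend left it unchanged. GC content and length were removed together, and the part of each was not tested. The longest transcripts have 11456 bases for MYO10, 8799 for MRTFB, 7995 for VCL and 4505 for MRTFA.

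MRTFA (ENSG00000196588, chromosome 22, 40410281 to 40636702, minus strand, 61.3% GC), a coactivator of SRF that binds monomeric actin, was at 33.1, 36.1, 36.1 and 35.2 CPM in PFHxA libraries a to d, 26.8, 28.8, 28.7 and 25.1 CPM in PFBA libraries and 29.5, 24.0, 27.6 and 26.1 CPM in control libraries. Every PFHxA library was above every library of the other groups, and PFBA and control overlapped. The mean was 35.1 ± 1.42 CPM with PFHxA and 26.8 ± 2.35 CPM in control (SD, n = 4 each), a 1.31-fold rise (log2 fold 0.39, SE 0.0701, adjusted p = 0.00352). The call held in each of the 12 fits without 1 library, with adjusted p between 0.00359 and 0.0130. Once this trend was taken out, MRTFA had a log2 fold of 0.25 (95% interval 0.10 to 0.40, adjusted p = 0.0738).

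MRTFB (ENSG00000186260, chromosome 16, 14071321 to 14266773, plus strand, 44.2% GC), the second MRTF, was at 99.9, 101.0, 106.4 and 106.8 CPM in PFHxA libraries a to d. PFBA libraries were at 96.0, 49.6, 87.5 and 66.7 CPM, and control libraries at 58.9, 44.9, 42.3 and 83.0 CPM. The PFHxA libraries were all above both other groups and close together, with a highest over lowest ratio of 1.07, where that ratio was 1.94 in PFBA and 1.96 in control. Means were 103.5 ± 3.59 CPM with PFHxA and 57.3 ± 18.6 CPM in control, a 1.81-fold rise (log2 fold 0.85, SE 0.242, adjusted p = 0.0411). This call was lost in 9 of 12 fits that left out 1 library: without PFBA c or d (adjusted p = 0.0535 and 0.0542), without any 1 of the PFHxA libraries (0.0669 to 0.0891) and without control a, b or c (0.0840 to 0.0966). Without control d the log2 fold was 1.09 (adjusted p = 0.0140). With the trend removed it was 0.81 (95% interval 0.25 to 1.38, adjusted p = 0.126).

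SRF (ENSG00000112658, chromosome 6, 43171299 to 43181507, plus strand, 60.9% GC) was at 103.7, 95.5, 90.5 and 93.3 CPM in PFHxA libraries a to d, 85.5, 91.8, 84.7 and 87.3 CPM in PFBA libraries and 88.9, 89.4, 84.0 and 81.4 CPM in control libraries. PFHxA libraries were above all control libraries and overlapped PFBA by 1 library, PFHxA c. The log2 fold of PFHxA against control was 0.16 (SE 0.0507, 95% interval 0.05 to 0.27, adjusted p = 0.0560), so the gene did not pass. It lay near the threshold: SRF was called in 5 of 9 other settings, with adjusted p down to 0.0362 in DESeq2, and in 1 of 12 fits without 1 library, that without PFHxA c (log2 fold 0.19, adjusted p = 0.0429). With the trend removed the log2 fold was 0.03 (adjusted p = 0.832).

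**Figure D2:**
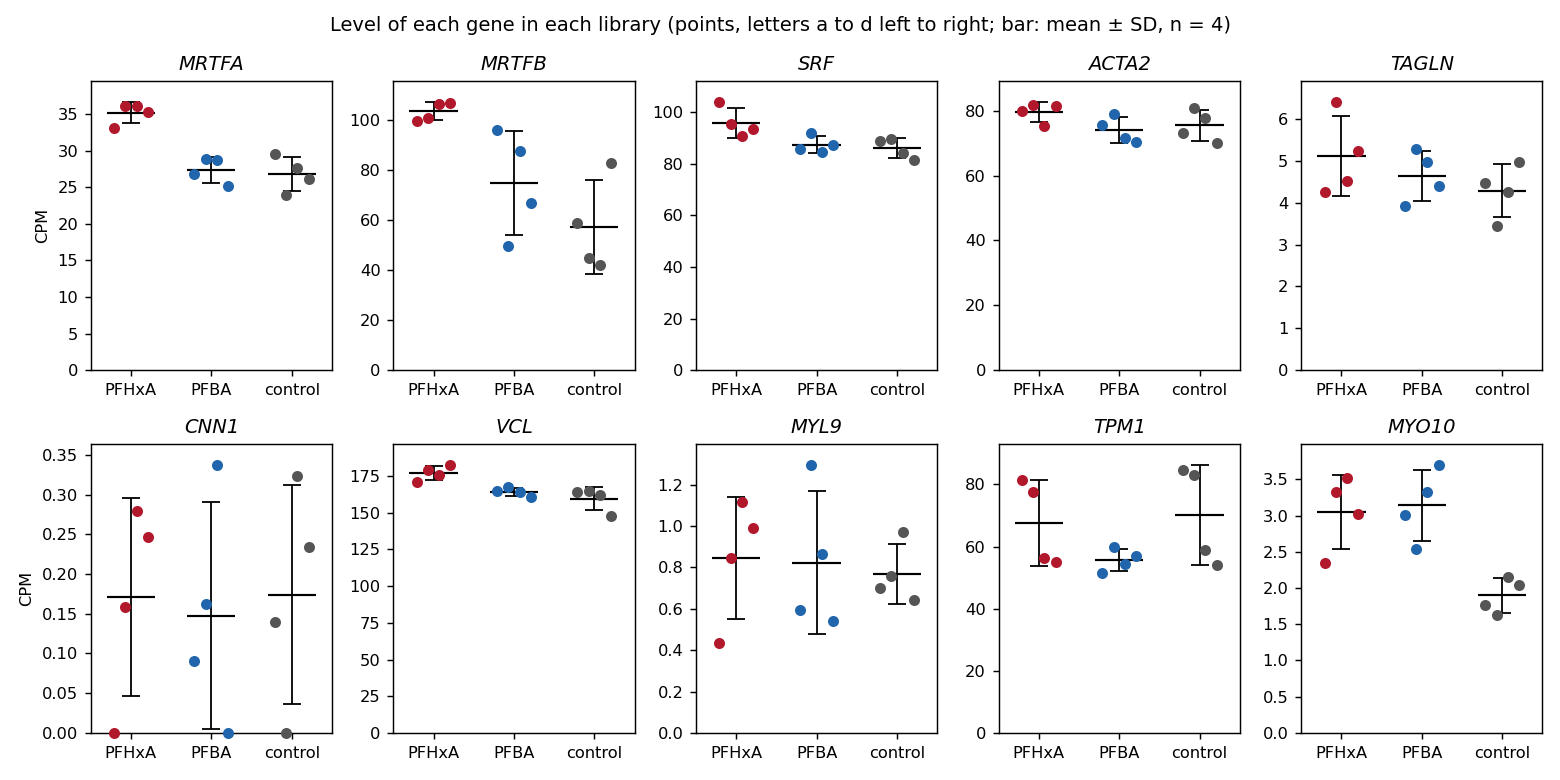
CPM of each of the 10 genes in every library, with PFHxA left, PFBA in the middle and control right; points run from library a to d within a group, and bars give mean ± SD (n = 4). All 4 PFHxA libraries lie above the other 8 for MRTFA, MRTFB and VCL, MYO10 is lowest in the 4 control libraries, and TPM1 has 2 high and 2 low libraries in both PFHxA and control.

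VCL (ENSG00000035403, chromosome 10, 73995193 to 74121363, plus strand) encodes vinculin, which ties actin filaments to adhesion sites and bears force there. It was at 170.8, 179.2, 175.7 and 182.4 CPM in PFHxA libraries a to d, 164.5, 167.7, 164.0 and 160.6 CPM in PFBA libraries and 163.9, 165.0, 162.2 and 147.6 CPM in control libraries. All 4 PFHxA libraries were above the other 8, and control d was lowest of all. The rise was 1.11-fold (177.0 ± 4.99 CPM with PFHxA and 159.7 ± 8.14 CPM in control, log2 fold 0.15, SE 0.0415, adjusted p = 0.0298). Leaving out control d gave a log2 fold of 0.11 (adjusted p = 0.0538), and the call was also lost when PFHxA b (adjusted p = 0.0663), PFHxA c (0.0528) or PFHxA d (0.0830) was left out. After removal of the trend the log2 fold was 0.10 (adjusted p = 0.0923).

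MYO10 (ENSG00000145555, chromosome 5, 16661914 to 16936276, minus strand) encodes myosin X, the motor that travels to the tips of filopodia and carries integrins there. Its counts were low, 32 to 75 reads a library. It was at 2.35, 3.33, 3.52 and 3.02 CPM in PFHxA libraries a to d, 3.01, 2.54, 3.32 and 3.70 CPM in PFBA libraries and 1.77, 1.62, 2.16 and 2.04 CPM in control libraries. Both acids lay above all 4 control libraries and overlapped each other. MYO10 rose 1.61-fold with PFHxA (3.05 ± 0.513 CPM with PFHxA and 1.90 ± 0.245 CPM in control, log2 fold 0.69, SE 0.168, adjusted p = 0.0163). The call held in the 12 fits without 1 library (adjusted p 0.00771 to 0.0482). With the trend removed the log2 fold was 0.55 (95% interval 0.17 to 0.93, adjusted p = 0.122).

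The remaining structural genes were not called with PFHxA. ACTA2 (ENSG00000107796, chromosome 10, 88935074 to 88991390, minus strand) was at 79.8, 81.7, 75.3 and 81.4 CPM in PFHxA libraries a to d, 75.4, 78.8, 71.5 and 70.2 CPM in PFBA libraries and 73.1, 80.8, 77.7 and 70.2 CPM in control libraries. The 3 groups overlapped, and the log2 fold of PFHxA against control was 0.08 (95% interval -0.04 to 0.19, adjusted p = 0.396; log2 fold 0.09 with the trend removed). TAGLN (ENSG00000149591, chromosome 11, 117199321 to 117204782, plus strand), which encodes the actin-binding protein transgelin, was at 4.26, 6.39, 4.53 and 5.24 CPM in PFHxA libraries, 3.92, 5.29, 4.96 and 4.39 CPM in PFBA libraries and 4.48, 3.45, 4.26 and 4.96 CPM in control libraries. These groups overlapped too (log2 fold 0.25, 95% interval -0.08 to 0.59, adjusted p = 0.311; log2 fold 0.17 with the trend removed).

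TPM1 (ENSG00000140416, chromosome 15, 63042632 to 63071915, plus strand) encodes a tropomyosin, which lies along actin filaments and governs access of myosin to them. It was at 81.3, 77.6, 56.4 and 55.1 CPM in PFHxA libraries a to d, 51.4, 59.9, 54.4 and 57.0 CPM in PFBA libraries and 84.7, 83.2, 59.0 and 53.9 CPM in control libraries. In both PFHxA and control, libraries a and b were high and c and d low, while the PFBA libraries were all low; the letters are those of the deposited columns and are tied to no label. The log2 fold of PFHxA against control was -0.06 (95% interval -0.44 to 0.33, adjusted p = 0.879; log2 fold -0.0454 with the trend removed). It had no steady sign: without control a it was 0.05, and without PFHxA a or control d it was -0.16.

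MYL9 (ENSG00000101335, chromosome 20, 36541484 to 36551447, plus strand), a regulatory light chain of non-muscle and smooth muscle myosin, had 8, 16, 20 and 20 reads in PFHxA libraries a to d, 13, 24, 18 and 11 reads in PFBA libraries and 15, 15, 18 and 11 reads in control libraries. Groups overlapped, and at this depth the interval of the log2 fold was wide (0.14, 95% interval -0.57 to 0.86, adjusted p = 0.833; log2 fold 0.0547 with the trend removed). CNN1 (ENSG00000130176, chromosome 19, 11538717 to 11550323, plus strand), the smooth muscle actin-binding protein calponin, had 0, 3, 5 and 5 reads in PFHxA libraries, 2, 3, 7 and 0 in PFBA libraries and 3, 0, 6 and 4 in control libraries. A count of 0 allows up to 3 reads, counting error only. CNN1 did not pass the filter on counts and was not tested, and a small difference in it was not detectable at this depth.

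With PFBA, 0 of the 9 tested genes passed against control, where 0.00604% of all tested genes did, which is 1 gene. By an unadjusted edgeR p under 0.05 the count was 1 of the 9, MYO10, and 1632 of all 16554; DESeq2 and limma-voom also called 0 of the 9. MYO10 had a log2 fold of 0.73 (SE 0.167, 95% interval 0.37 to 1.09, adjusted p = 0.297), from 3.14 ± 0.492 CPM with PFBA and 1.90 ± 0.245 CPM in control, and was the 1 gene of the 9 with all 4 PFBA libraries above all 4 control libraries (3.17% of all tested genes). The 2 comparisons with control share the 4 control libraries, so the MYO10 log2 folds of 0.69 with PFHxA and 0.73 with PFBA do not check each other. MRTFA averaged 27.4 ± 1.74 CPM with PFBA and 26.8 ± 2.35 CPM in control (log2 fold 0.03, 95% interval -0.12 to 0.18). MRTFB averaged 74.9 ± 20.9 CPM with PFBA and 57.3 ± 18.6 CPM in control (log2 fold 0.39, 95% interval -0.15 to 0.93, adjusted p = 0.634). TPM1 had the lowest log2 fold of the 9, -0.34 (95% interval -0.72 to 0.05, adjusted p = 0.562), with 55.7 ± 3.64 CPM with PFBA and 70.2 ± 16.02 CPM in control.

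Set side by side at the same dose and time, PFHxA, whose perfluorinated chain is longer, differed from PFBA in MRTFA. It was 1.28-fold higher with PFHxA (35.1 ± 1.42 CPM) than with PFBA (27.4 ± 1.74 CPM), with a log2 fold of 0.36 (SE 0.0699, adjusted p = 0.00630) that was called in all 12 fits without 1 library and not with the trend removed (0.24, adjusted p = 0.135). This was 1 of 9 tested genes, where 10.9% of all tested genes were called in this comparison. PFHxA libraries lay above all PFBA libraries for 3 of the 9, MRTFA, MRTFB and VCL (9.24% of all tested genes). MRTFB had a log2 fold of 0.46 (95% interval -0.07 to 1.00, adjusted p = 0.253) and VCL one of 0.11 (95% interval 0.02 to 0.20, adjusted p = 0.112; 0.0405 without control d). For SRF the difference was 0.13 (95% interval 0.02 to 0.24, adjusted p = 0.111), and for MYO10 it was -0.04 (95% interval -0.39 to 0.30, adjusted p = 0.905), which leaves room for a difference of either sign.

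**Figure D3:**
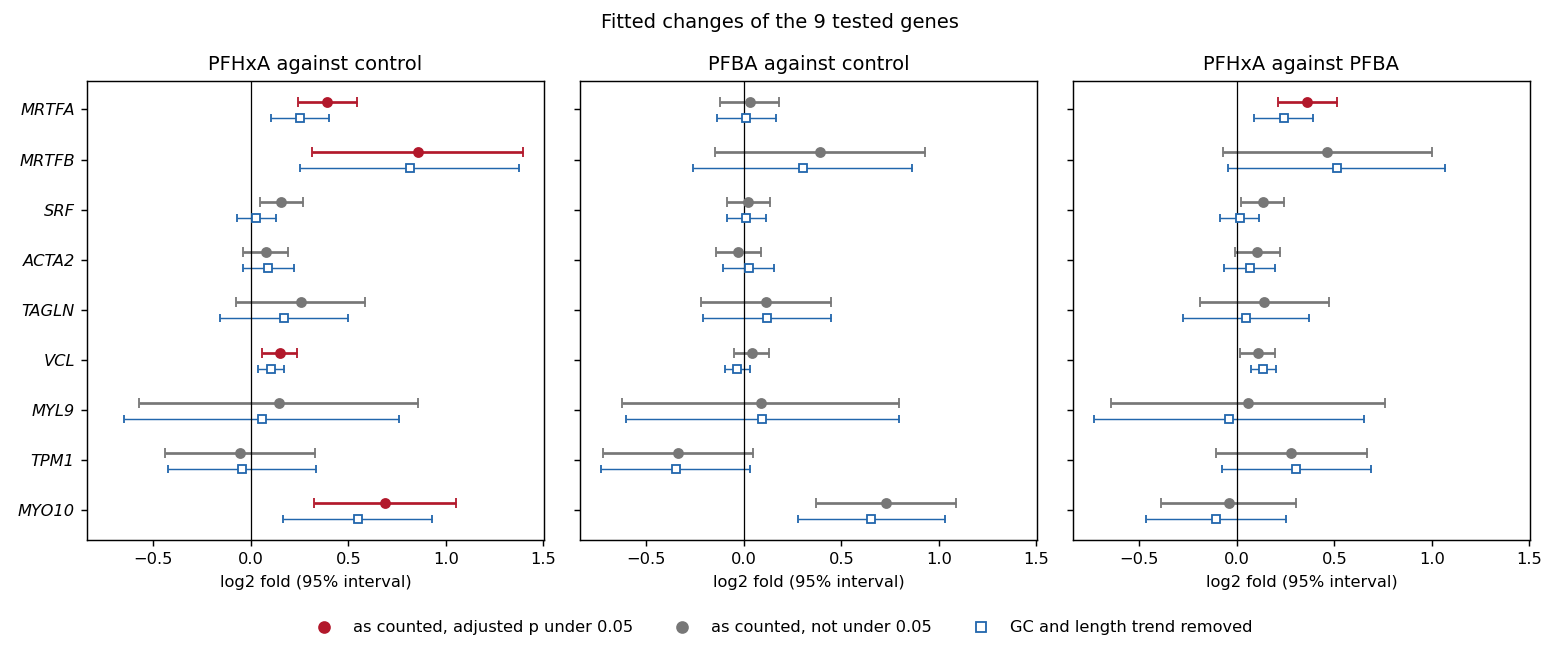
Log2 fold of the 9 tested genes with its 95% interval in the 3 comparisons. Circles are the edgeR fit of the counts, red where the adjusted p is under 0.05; open squares are the same fit with the trend over GC content and length removed, in which 0 of the 9 genes were called. MRTFA, MRTFB, VCL and MYO10 are red with PFHxA against control and MRTFA alone with PFHxA against PFBA.

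The spread between libraries of a group was unequal among the genes. MRTFB had a within-group SD of 0.357 on the log2 scale, where the median was 0.0826 over 4369 genes within 2-fold of its level and 4.42% of them had a larger SD. TPM1 had an SD of 0.264, larger than all but 7.80% of 4757 genes of like level. MRTFA (0.0968), SRF (0.0684), ACTA2 (0.0749) and VCL (0.0516) were no more variable than the median of genes at their levels.

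By a rule of likeness (highest Pearson r of log2 CPM over the 12 libraries among genes with a mean of at least 10 CPM), the genes nearest to MRTFA were NPC1 (r = 0.945), TOB2 (0.937) and MYCN (0.930). Those nearest to MRTFB were PLEKHA2 (0.905), ARMH4 (0.851) and KSR1 (0.849). ABCC5 (0.986), HUWE1 (0.984) and CTDSP2 (0.981) were nearest to VCL. These r values pick the top of about 10071 genes each, in libraries that share groups and their GC trend, and describe these 12 libraries only.

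The wider set of 38 other MRTF-SRF targets had 33 tested genes; it was drawn up from general knowledge but with earlier results of these data known, so its counts are descriptions. With PFHxA, 9 rose and 0 fell against control (6.08% of all tested genes were called higher and 8.82% lower), and 28 of 33 had a log2 fold above 0, where 49.4% of all tested genes did. The median log2 fold was 0.19 against -0.00385 over all tested genes; with the trend removed it was 0.11 against 0.0028, with 26 of 33 above 0. Non-muscle myosin heavy chain MYH9 was at 655.2 ± 11.6 CPM with PFHxA and 531.7 ± 30.1 CPM in control (1.23-fold, adjusted p = 0.00197), and the filament cross-linker FLNA at 876.8 ± 5.82 and 700.4 ± 51.2 CPM (1.25-fold, adjusted p = 0.00203). SMTN, the actin-binding protein smoothelin, was at 53.2 ± 2.23 CPM with PFHxA and 42.1 ± 0.270 CPM in control (1.26-fold, adjusted p = 0.00258). ACTB, cytoplasmic beta actin, was at 1518 ± 86.1 and 1219 ± 48.9 CPM (1.25-fold, adjusted p = 0.00598). The integrin subunit ITGA5, the cross-linker ACTN1, the integrin activator TLN1, the matrix protein CCN1 and the filamin FLNC made up the rest, at 1.14-fold to 1.25-fold. With the trend removed ACTB (log2 fold 0.27, adjusted p = 0.0264), MYH9 (0.12, adjusted p = 0.0484) and FLNA (0.12, adjusted p = 0.0464) were called, 3 in all. Without 1 library 7 to 10 rose, and without PFHxA a FILIP1L was also called lower (log2 fold -0.43, adjusted p = 0.0140).

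Against PFBA, 5 of the 33 were higher with PFHxA and 0 lower (SMTN, TLN1, MYH9, FLNA and ACTN1, 1.16-fold to 1.25-fold), where 3.84% of all tested genes were called higher and 7.07% lower, and 0 were called with the trend removed. Leaving out 1 library gave 3 (without PFBA d) to 7 (without control d) higher, and without PFBA b ITGA1, an integrin subunit, was also lower (log2 fold -0.46, adjusted p = 0.0310). With PFBA against control, 0 of 33 passed in edgeR, and 4 had an unadjusted p under 0.05, where 1632 of all 16554 tested genes did. The median log2 fold was 0.07 against -0.0026 over all tested genes. ACTB, a relative of ACTA2, was called with PFHxA against control as given above. The actin gene ACTG1 was not, at 773.6 ± 92.5 CPM with PFHxA and 752.3 ± 59.3 CPM in control (log2 fold 0.04, adjusted p = 0.838). The tropomyosin, calponin and transgelin relatives on this list were not called in that comparison either: TPM2 had a log2 fold of 0.11 (adjusted p = 0.430), TPM3 0.27 (adjusted p = 0.494), TPM4 0.04 (adjusted p = 0.898), CNN2 0.23 (adjusted p = 0.567) and TAGLN2 0.05 (adjusted p = 0.511). TAGLN2 was far more abundant than TAGLN, at 473.0 ± 26.1 CPM with PFHxA and 455.9 ± 20.3 CPM in control, a comparison of read counts not scaled by length.

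**Figure D4:**
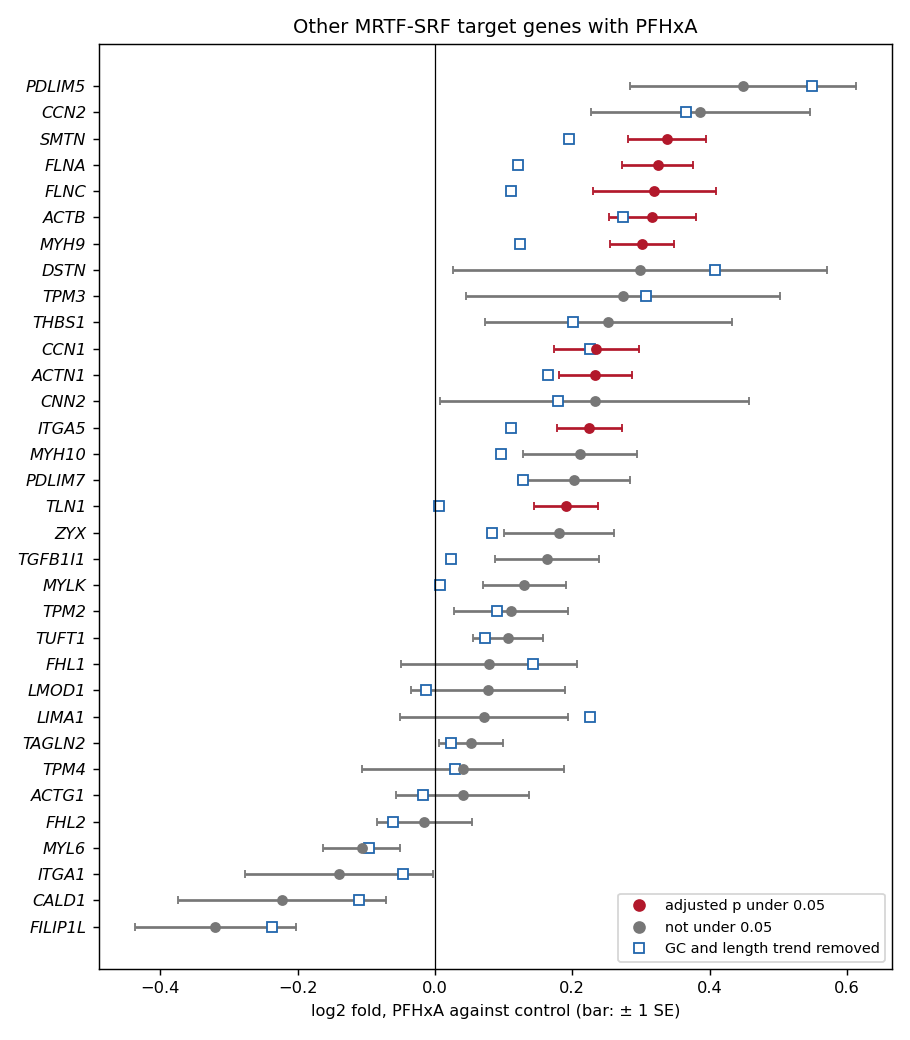
Log2 fold of PFHxA against control for the 33 tested genes among the other MRTF-SRF targets, sorted by size, with bars of ± 1 SE. Red circles are the 9 genes with an adjusted p under 0.05; open squares give the log2 fold with the GC and length trend removed, which lies nearer 0 for 8 of these 9 by more than 0.04 and for CCN1 by less.

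Full CArG boxes were searched in the promoter windows of this target set, which was drawn up from genes known as SRF targets. A box was present in 16 of 69 windows (23.2%) in 14 of 34 genes, against 1.29% of all windows. Of the 9 called genes, SMTN, FLNA and ACTN1 held a full box, and their boxes are shown in capitals with 25 bases on either side. SMTN is at chr22:31084927-31084986 (plus strand), FLNA at chrX:154374694-154374753 (minus strand) and ACTN1 at chr14:68977703-68977762 (minus strand). The other 11 genes with a box, TPM4 and CNN2 among them, were not called or not tested.
SMTN: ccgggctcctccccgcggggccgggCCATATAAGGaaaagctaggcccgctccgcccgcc
FLNA: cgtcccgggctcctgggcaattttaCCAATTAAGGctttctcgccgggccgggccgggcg
ACTN1: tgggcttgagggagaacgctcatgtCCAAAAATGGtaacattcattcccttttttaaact
The box of SMTN starts 44 bases before the start site, that of FLNA 94 and that of ACTN1 171 bases before it.

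Genes that carry the actin signal to MRTFs moved in both directions. Of 19 tested, 5 rose and 2 fell with PFHxA against control, where 6.08% of all tested genes were called higher and 8.82% lower. The GTPase gene RHOB was at 719.0 ± 23.8 CPM with PFHxA and 607.8 ± 10.3 CPM in control (1.18-fold, adjusted p = 0.00199; 0.0128 with the trend removed), and ACTB has been given above. The guanine nucleotide exchange factor genes ARHGEF11 and ARHGEF1 were 1.14-fold and 1.12-fold higher, and the formin DIAPH1 1.18-fold higher. The kinase genes ROCK2 and ROCK1, whose products raise myosin activity, fell. ROCK2 was at 72.3 ± 6.35 CPM with PFHxA and 86.6 ± 7.02 CPM in control (log2 fold -0.26, adjusted p = 0.0266), and ROCK1 at 84.6 ± 7.15 and 97.6 ± 6.37 CPM (log2 fold -0.21, adjusted p = 0.0451). With the trend removed, ACTB and RHOB were called and neither kinase was (adjusted p = 0.129 and 0.183). Without PFHxA b or without control c 2 rose, and without PFHxA b, PFHxA d, control a or control b 0 fell. Against PFBA, RHOB and LIMK1 were higher with PFHxA, and ROCK2, ROCK1 and DIAPH3 lower. Of all tested genes 3.84% were called higher and 7.07% lower against PFBA. ROCK2 was at 72.3 ± 6.35 CPM with PFHxA and 95.5 ± 5.22 CPM with PFBA (log2 fold -0.40, adjusted p = 0.00406). In that comparison 0 were higher without PFBA a, PFBA d, PFHxA b or PFHxA c, and 2 to 4 were lower in each fit without 1 library. DESeq2 called 4 higher and 4 lower, and with the trend removed 0 of the 19 were called.

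Partners of SRF other than MRTFs were not called in the fit of all 12 libraries. Of 9 cofactors and regulators, 0 passed in edgeR in any of the 3 comparisons. Of all tested genes 14.9% were called with PFHxA against control, 0.00604% with PFBA against control and 10.9% between the acids. With 9 genes, nothing is read from this 0. At an unadjusted edgeR p under 0.05 there were 1 with PFHxA against control, 0 with PFBA against control and 3 between the acids. Of all 16554 tested genes, 4719, 1632 and 4399 had such a p in these 3 comparisons. ELK1, a ternary complex factor, had a log2 fold of 0.17 (adjusted p = 0.133), and SCAI, an inhibitor of MRTFs, one of -0.15 (adjusted p = 0.197), both with PFHxA against control. In that comparison LMNA, a nuclear lamina gene on the list, was called without control c (log2 fold 0.18, adjusted p = 0.0443) and 0 of the 9 were called in the other fits without 1 library. Among 9 tested immediate early targets of the SRF and ternary complex factor route, 2 rose with PFHxA against control (6.08% of all tested genes did), EGR1 (1.26-fold, adjusted p = 0.00868) and JUNB (1.13-fold, adjusted p = 0.0457), and 0 fell; neither was called with the trend removed, and 1 of them was called in each fit without a library other than PFBA b, PFBA d or control c, in which 2 were. Between the acids JUNB (1.15-fold) and NR4A1 (1.27-fold) were higher with PFHxA (3.84% of all tested genes were), and 0 were called without PFBA a, c or d or PFHxA b or with the trend removed.

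Vinculin's partners at adhesion sites included 6 of 17 that rose with PFHxA against control and 0 that fell, where 6.08% of all tested genes rose and 8.82% fell. TLN2, a talin, was at 116.0 ± 4.85 CPM with PFHxA and 88.5 ± 8.13 CPM in control (1.31-fold, adjusted p = 0.00269; 0.0298 with the trend removed, the 1 gene of this list then called). ACTN4 was 1.17-fold, TNS3 1.22-fold and the adaptor BCAR1 1.22-fold higher, beside ACTN1 and TLN1. The lists share genes, and their counts are not separate observations. ACTN1 and TLN1 here, ACTB among the signalling genes and MYH9 among the myosins were already counted among the other MRTF-SRF targets. Without 1 library 5 to 7 rose. Against PFBA, TLN1, ACTN1, TLN2 and ILK were higher with PFHxA (1.12-fold to 1.19-fold) and 0 were lower; the count was 1 without PFBA c, PFBA d, PFHxA b or PFHxA d and 6 without control d. With the trend removed 0 were called between the acids; 3.84% of all tested genes were called higher before its removal.

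Of 19 tested myosin and tropomyosin genes, 4 rose and 3 fell with PFHxA against control, where 6.08% of all tested genes rose and 8.82% fell. MYH9, the unconventional myosins MYO9B (1.22-fold) and MYO1C (1.19-fold) and MYO5A (1.11-fold) rose. PPP1R12A, the targeting subunit of myosin phosphatase, was at 68.7 ± 5.01 CPM with PFHxA and 83.2 ± 4.50 CPM in control (log2 fold -0.28, adjusted p = 0.00812), and the light chain gene MYL12A fell by 0.16 on the log2 scale. MYL12A, a close relative of MYL9, was at 120.4 ± 4.63 CPM with PFHxA and 134.7 ± 4.24 CPM in control. MYH9 was the 1 gene of this list called with the trend removed, and without PFHxA b, c or d or control a only 1 fell. Of 11 filopodia genes beside MYO10, 2 rose with PFHxA against control (against the same 6.08%), the mechanosensitive channel PIEZO1 (234.5 ± 8.88 CPM with PFHxA and 183.5 ± 8.35 CPM in control, 1.28-fold, adjusted p = 0.00137) and the bundling protein FSCN1 (1.10-fold, adjusted p = 0.0404), and 0 fell; PIEZO1 was also called with the trend removed (log2 fold 0.14, adjusted p = 0.0333). Without a library other than PFBA b, PFBA d or PFHxA a 1 filopodia gene rose. Without control d CDC42, a small GTPase, also fell (log2 fold -0.16, adjusted p = 0.0421). Against PFBA, 3 of the 19 were higher with PFHxA and 2 lower, and of the 11 filopodia genes 2 were higher and 1 lower. Of all tested genes 3.84% were called higher and 7.07% lower against PFBA. Without 1 library 1 to 3 of the 19 and 0 to 1 of the 11 were lower, and with the trend removed 0 of either list were called. With PFBA against control, 0 genes of these lists passed in edgeR or limma-voom, and DESeq2 called 1, MYO5A, whose edgeR log2 fold was 0.21 (adjusted p = 0.297). At an unadjusted edgeR p under 0.05 there were 4 of 19 signalling genes, 1 of 9 immediate early genes and 1 of 17 vinculin partners. There were also 2 of 19 myosin and tropomyosin genes and 1 of 11 filopodia genes. Of all 16554 tested genes 1632 had such a p, and nothing is read from these counts.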

How the data were processed

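RNA-seq libraries of RPMI2650 cells were analysed, 4 per group. Per the submitters' processing notes, reads were aligned with HISAT2 2.0.4 to GRCh38 (hg38). No source names the counter, its annotation release or a strand setting. The authors deposited raw counts per gene, used here. Columns were tied to groups by their prefix and to no single sample, so a second set of 12 columns, of FPKM, was not used, and levels planned as FPKM are given as CPM per kb. Counts were scaled by TMM factors, filtered with filterByExpr and fitted over all 12 libraries with edgeR 4.0.16 (R 4.3.3, quasi-likelihood F test, group as the only term). P-values were Benjamini-Hochberg adjusted over 16554 genes with a threshold of 0.05. Limma-voom 3.58.1, DESeq2 1.42.0, other scalings and filters, each library left out, and offsets that take out the GC content and length trend of each library (splines, 5 df, GENCODE 29 longest transcript) were alternatives.

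Named genes were all 10 genes of the set, up to 4 called genes per list and comparison by smallest p (the 2 smallest where none was called), near relatives, and the 3 genes most alike. Some genes named by this rule are not reported here. Further called genes and the printed sequences were chosen after their values were seen. The members and lists were chosen with earlier results of these data known. List counts other than the targets were added as alternatives after seeing the data. Intervals and the limit for a count of 0 cover counting error or library spread only.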

Additional observations from a re-analysis of the deposited data

Results flagged for a closer look

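VCL was flagged as low in 1 control library, a flag that chance alone can give among 30 groups. Control d had 147.6 CPM, below the other control libraries at 162.2, 163.9 and 165.0 CPM, and its gap to the nearest of them, divided by the range of the group, was 0.838, above Dixon's critical value for 4 samples. Of 30 groups tested this was the 1 flagged, where chance flags about 1 in 20. Control d also had the lowest share of mitochondrial reads, 9.15%; the part of this library in the VCL result is given by the fit without it (log2 fold 0.11, adjusted p = 0.0538).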

How the results depend on the processing

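With PFHxA against control, 2466 genes were called, and 457 after removal of the GC and length trend (176 higher, against 1006 higher before). The 10-gene set had 4 called genes, 5 under RLE or upper-quartile scaling, the stricter filter, DESeq2 or the block (SRF added), 3 with the 8 libraries alone (VCL lost, adjusted p = 0.0622), 2 with no filter on low counts and 0 with the trend removed, and the other targets had 9 and 3 with the trend removed. With PFHxA against PFBA, 1806 genes were called and 144 with the trend removed (38 higher, against 636), with 1 and 0 genes of the set and 5 and 0 other targets. With PFBA against control 1 gene was called, 2 with no filter, 2 with the 8 libraries alone, 0 by limma-voom and 32 by DESeq2. Without 1 library, called genes ranged over 1523 to 2396 (PFHxA against control), 1035 to 2187 (PFHxA against PFBA) and 0 to 4 (PFBA against control), the set over 2 to 4, 1 to 2 and 0 to 0, and other targets over 7 to 10, 3 to 7 and 0 to 0. Signs turned with the trend removed for ACTA2 (0.0247) and VCL (-0.0326) with PFBA against control and MYL9 (-0.0399) with PFHxA against PFBA, all uncalled; the cause was not tested. Without 1 library, uncalled log2 folds crossed 0 with PFBA against control for MRTFA (-0.0203 to 0.0793), SRF (-0.00175 to 0.0426), ACTA2 (-0.0612 to 0.00595) and MYL9 (-0.20 to 0.24), with PFHxA against PFBA for MYL9 (-0.10 to 0.34) and MYO10 (-0.13 to 0.0636), and with PFHxA against control for TPM1 (-0.16 to 0.0483) and MYL9 (-0.00312 to 0.35).

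The columns carry letters that no label ties to its replicate numbers, so the letters pair no libraries by design. Libraries of the same letter deviated with correlations between -0.0896 and 0.0625. A replicate block on the letter called 2441, 1838 and 0 genes with PFHxA against control, PFHxA against PFBA and PFBA against control, and added SRF to the set (adjusted p = 0.0432).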

Other observations

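Over the 12 libraries log2 CPM of MRTFA and MRTFB had a Pearson r of 0.653, and after the group means were removed it was 0.0253. MRTFB and ACTA2 had an r of -0.0147 over the 12 libraries and -0.655 for the deviations from group means. Among all pairs of the tested genes, r of the deviations was highest for SRF and TPM1 (0.857) and lowest for SRF and MYO10 (-0.827). These are descriptions of libraries that share groups, with no test.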
